A study of Mus musculus with 4 samples.

Results

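The genes described here encode the proteins of the cytosolic ribosome, the particle that translates messenger RNA outside the mitochondria. They were chosen by gene symbol: Rpl, Rps or Rplp followed by a number and, where present, a short ending such as x or l1. The rule found 81 of the 22574 genes of the deposited count matrix, with 31 proteins of the small subunit, 3 of the stalk and 47 others of the large subunit. The study compared neonatal mouse hearts after Sham surgery or after myocardial infarction (MI), made by tying off a coronary artery, with and without the transcription factor Nrf1 (gene Nfe2l1) in cardiomyocytes. Single-nucleus RNA sequencing was done on 4 libraries, 1 for each combination of genotype and surgery, called WT-Sham, KO-Sham, WT-MI and KO-MI. All mice carried Nrf1 fl/fl alleles. The KO mice also carried aMHC-Cre, whose promoter, that of a cardiomyocyte myosin, limits deletion of the gene to cardiomyocytes, and the WT mice are the fl/fl mice without Cre. The mice were of C57BL/6 background by the treatment text, surgery was done at postnatal day 3, and tissue was taken 1 day later from below the ligation plane. Each library came from 1 pool of tissue from 4 to 6 hearts, so no group had a replicate, no test was possible, and each interval given is a 95% interval that covers counting error only.

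A ribosome is built from a small subunit, which reads the message, and a large subunit, which joins amino acids. The stalk proteins of the large subunit recruit translation factors. Ribosomal proteins are needed in matched amounts for the particle. Their messages are among the most abundant of the cell and commonly begin with a run of C and T bases (the terminal oligopyrimidine tract) through which growth signals set their translation. A few members have a paralog with a restricted pattern, such as Rpl3l, a striated muscle copy of Rpl3.

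The start sites of the members that carry the results below are shown first, because such a run is a known feature of many genes of this family. Each line holds 15 bases on either side of the annotated start on the gene's own strand, from the RefSeq promoter table of build GRCm38.p6, and capitals mark the longest run of C or T where it has 6 or more bases.
Rpl15, chr14:18270972-18271001, minus strand: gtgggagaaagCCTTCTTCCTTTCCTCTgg
Rpl35, chr2:39005117-39005146, minus strand: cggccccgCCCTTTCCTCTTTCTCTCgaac
Rpl38, chr11:114668565-114668594, plus strand: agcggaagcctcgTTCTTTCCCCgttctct
Rps18, chr17:33955651-33955680, minus strand: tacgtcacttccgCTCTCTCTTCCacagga
Rpl4, chr9:64173372-64173401, plus strand: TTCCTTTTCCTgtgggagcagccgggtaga
Rpl37, chr15:5116598-5116627, plus strand: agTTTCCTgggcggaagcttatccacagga
Rps2, chr17:24720048-24720077, plus strand: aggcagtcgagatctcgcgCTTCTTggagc
Rpl3l, chr17:24727811-24727840, plus strand: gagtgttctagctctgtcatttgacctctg
Rpl7l1, chr17:46782642-46782671, minus strand: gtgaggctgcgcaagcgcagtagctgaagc
The longest runs were 18 bases in Rpl35 and 17 in Rpl15, while Rpl3l, the muscle paralog, and Rpl7l1, a relative of Rpl7, held no run of 6. That is not particular to these paralogs: the windows of Rplp0 (longest run 5), Rps28 (4), Rpl10, Rpl11, Rpl23 and Rpl41 (3 each) and Rps3a1 (2) held none either, and the paralogs Rpl22l1, Rps27l and Rpl39l held runs of 10, 9 and 7. Of the members, 61 had an entry in the table, with 73 windows. A run of 8 or more C or T bases lay within these 30 bases in 28 of the 73 member windows and in 3943 of all 32851 windows, and on the other strand in 3 and 4352. CTTCCGG, the core of the motif bound by ETS factors, searched on both strands of the 300-base window, was in 35.6% of member windows and 8.86% of all. TATAAA was in 9.59% and 13.6%. TGACTCAGC, a form of the antioxidant response element bound by Nrf1 and its relatives, was in none of the 73 member windows and in 0.454% of all, and the looser TGANNNNGC was in 38.4% and 41.3%. These are matches of letters in 1 window per start, and they say nothing of binding.

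The matrix held 8585 nuclei, from 1406 to 3328 per library, and 4984625 to 9106522 UMIs per library. A UMI is a molecular tag, so a count is a count of captured RNA molecules. The median nucleus held 2572 UMIs in KO-Sham and 3553.5 to 3959 in the other libraries, and 9 barcode sequences occurred in more than 1 library. The 8 cardiomyocyte markers were all detected in every library, at 3.24% to 3.81% of UMIs. The targeted gene Nfe2l1 was at 62.2 and 50.5 UMIs per 1000000 (CPM) in the libraries labelled WT-Sham and KO-Sham and at 47.4 and 55.3 CPM in those labelled WT-MI and KO-MI, so it was lower in KO-Sham than in WT-Sham (log2 ratio -0.30, interval -0.51 to -0.09) and higher in KO-MI than in WT-MI (0.22, interval 0.02 to 0.43). The MI pair therefore goes against its genotype labels in this gene. Where the counted reads lie relative to the deleted stretch was not tested. KO below means the library labelled KO.

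Ribosomal protein transcripts made up between 2.58% and 3.40% of all UMIs of a library. Each nucleus held at least 1, with a median of 77 per nucleus in WT-Sham, 86 in KO-Sham, 99 in WT-MI and 107 in KO-MI. Levels are set side by side between members here, with 2 limits. Introns were counted too, the member genes run from 828 to 31449 bases, and the part of gene length in these levels was not tested. Levels are also uncertain where reads are shared with near-identical copies elsewhere in the genome. Several of the members ranked here are such cases: of the 90-base stretches at their 3′ ends, Rps27a shares 91.7% with other genes, Rpl13 89.8%, Rpl19 76.2%, Rps2 69.1%, Rps3a1 47.0% and Rplp1 36.6%, against 16.8% for Rps24, 15.7% for Rpl41 and 8.54% for Rpl23. The order given next is therefore uncertain. The stalk protein Rplp1 had the most UMIs of all members (26152 over the 4 libraries), and others with many UMIs were the large subunit protein Rpl13 (22240), Rpl23 (21097), Rpl41, the smallest protein of the ribosome (19037), Rps27a, which is made as a fusion with ubiquitin (18095), Rps24 (17690), Rps2 (16875), Rpl19 (16233) and Rps3a1 (16131). Each of the 10 members with the most UMIs held from 1.81% to 2.94% of the family's UMIs. At the other end, Rpl15 had 890 UMIs, Rpl7l1 885, Rpl3l 192 and Rpl39l, a paralog of Rpl39 known from testis, 10. Rpl39l was at 1 to 4 UMIs per library and is left out of all medians and counts below, which hold the 80 members with 20 or more UMIs over both libraries of a comparison.

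The share of ribosomal protein transcripts over all nuclei was 2.58% in WT-Sham, 3.40% in KO-Sham, 2.77% in WT-MI and 3.14% in KO-MI. Both KO libraries were above both WT libraries, and the KO-Sham library was the highest. The order was the same in CM1, the most abundant population, at 2.20%, 3.23%, 2.57% and 2.85%. The populations CM1, CM2, CM4 and CM5 are cardiomyocyte states, taken here from the deposited population label. By the study's methods such states were assigned from an earlier dataset. In CM2 the shares were 1.97%, 2.70%, 2.56% and 2.68%, and in CM5, a state that the study ties to injury, they were 2.69%, 3.32%, 2.49% and 3.06%. The KO library was the higher of its pair in CM1, CM2 and CM5 under both surgeries. CM4, which the study treats as a regenerative state, differed on both counts. Its share was 6.64% in WT-Sham, 5.55% in KO-Sham, 6.67% in WT-MI and 8.24% in KO-MI, above every other population in every library, and the KO library was the lower of the Sham pair and the higher of the MI pair.

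**Figure D1:**
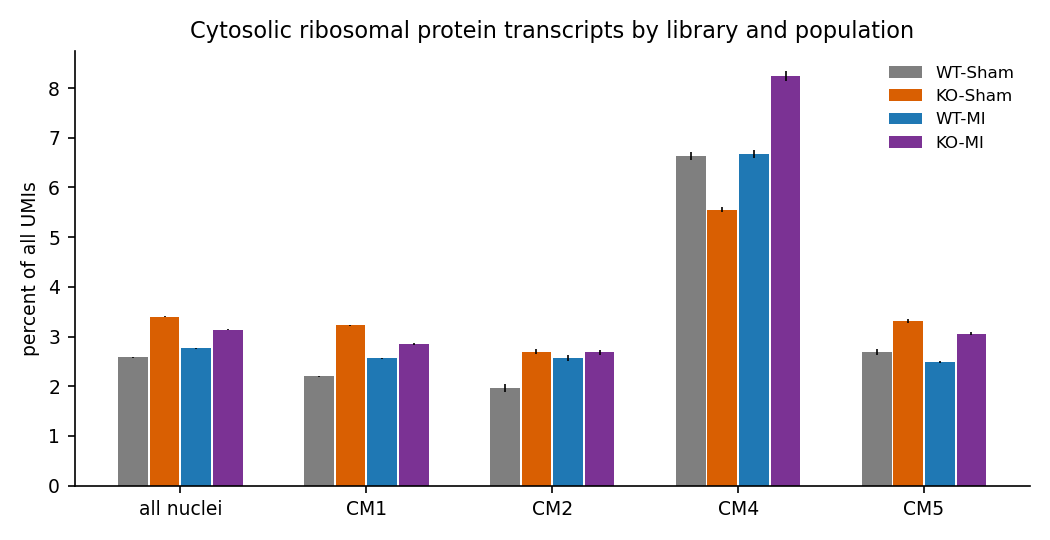
Percent of all UMIs from the 81 cytosolic ribosomal protein genes (vertical axis) in all nuclei and in each population, 1 bar per library, with exact 95% binomial intervals for counting error. CM4 stands at 5.55% to 8.24% where all nuclei together stand at 2.58% to 3.40%, and KO-Sham is the lowest CM4 bar and the highest bar over all nuclei.

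CM4 nuclei held fewer UMIs than CM1 nuclei (medians of 1715.5 to 2394 against 2632 to 4043.5) and a larger share of mitochondrial genome transcripts (medians of 9.47% to 14.6% against 5.05% to 8.78%). The populations had been assigned from the same nuclei's transcripts, so the contrast between them is a description. In nuclei of 1000 to 2500 UMIs alone, the ribosomal protein share was 6.90% in CM4 and 3.05% in CM1 of WT-Sham, 5.04% and 3.82% in KO-Sham, 6.825% and 3.72% in WT-MI, and 7.74% and 4.29% in KO-MI. CM4 was thus the higher in each library at like depth, with the smallest gap in KO-Sham. CM4 had 192 nuclei in WT-Sham, 351 in KO-Sham, 192 in WT-MI and 118 in KO-MI, and a median of 117.5, 90, 110 and 199 ribosomal protein UMIs per nucleus. Other transcripts moved with this share in CM4. The 4 long RNAs held in the nucleus, led by Malat1, made up 2.44% of CM4 UMIs in WT-Sham, 5.43% in KO-Sham, 6.00% in WT-MI and 3.94% in KO-MI, so they were higher in KO than in WT in Sham and lower in MI, opposite to the ribosomal proteins. Respiratory chain subunits made up 8.75%, 7.82%, 4.83% and 7.14%, lower in KO in Sham and higher in MI, like the ribosomal proteins. In CM1 the long RNAs were at 9.94%, 9.13%, 12.4% and 12.3%, and the respiratory chain subunits at 2.79%, 4.92%, 2.14% and 2.49%. The contrast of CM4 with CM1 was thus not particular to the ribosomal proteins. In the same order of libraries, 5 red blood cell genes made up 1.28%, 0.783%, 0.841% and 0.354% of CM4 UMIs. In CM1 they made up 0.255%, 0.189%, 0.383% and 0.203%. For 7 fibroblast genes the shares were 0.246%, 0.197%, 0.232% and 0.220% in CM4 and 0.105%, 0.0915%, 0.0895% and 0.0905% in CM1. The part of transcripts of other cell types in the CM4 share was not tested. The values of these other lists are from all nuclei of the population, not from nuclei of like depth. The part of nuclear against cytoplasmic RNA in the CM4 differences was not tested.

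Over all nuclei of each library, the ribosomal protein share moved with the share of mitochondrial genome transcripts. Pearson's r between them was 0.68 in WT-Sham, 0.36 in KO-Sham and 0.47 in both MI libraries. Within CM1 it was 0.25 to 0.35, within CM5 0.28 to 0.41 and within CM2 -0.05 to 0.52. Within CM4 it was near 0 or weak, at 0.08 in WT-Sham, -0.06 in KO-Sham, 0.23 in WT-MI and -0.05 in KO-MI. The points share a library and their total UMIs, and over all nuclei r with log10 UMIs was -0.42 to -0.61. The median mitochondrial share differed between libraries too, at 6.58% in WT-Sham, 8.98% in KO-Sham, 5.37% in WT-MI and 5.29% in KO-MI. The shares are therefore also given within classes of nuclei of like mitochondrial share, a division chosen after these values were seen. In CM1 nuclei with at most 5% mitochondrial UMIs, ribosomal proteins made up 1.93% in WT-Sham, 2.38% in KO-Sham, 2.36% in WT-MI and 2.52% in KO-MI. In CM1 nuclei with over 5% to 10%, they made up 2.25%, 3.15%, 2.76% and 3.15%. With over 10% they made up 2.995%, 3.57%, 2.91% and 3.70%. KO was above WT in each class under both surgeries. MI was above Sham in WT in the lower classes but not over 10%, and in KO in the lowest and highest classes, while in KO-MI and KO-Sham at over 5% to 10% the intervals overlapped (3.13% to 3.18% and 3.14% to 3.17%).

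**Figure D2:**
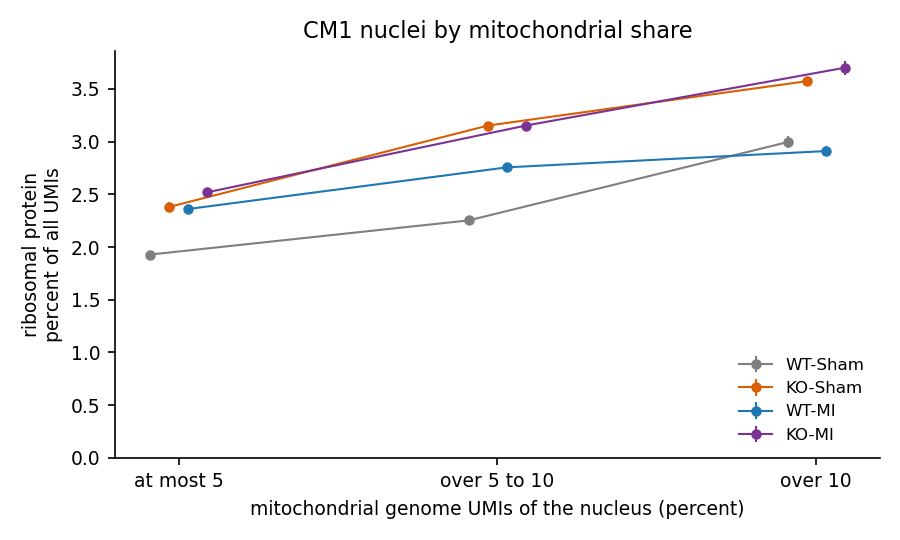
Percent of UMIs from ribosomal protein genes (vertical axis) in CM1 nuclei of each library, by the share of mitochondrial genome UMIs in the nucleus (horizontal axis, percent), with exact 95% binomial intervals. The share is higher in classes with more mitochondrial UMIs in each library, and both KO libraries lie above the WT library of the same surgery in all 3 classes.

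The first comparison sets the library labelled KO against the one labelled WT without infarction, 1 library each. The summed CPM of the family was higher in KO-Sham than in WT-Sham by 0.40 on the log2 scale (interval 0.39 to 0.41). The shift was shared: 79 of the 80 members were above 0, where 38.5% of all 13370 genes tested were, and the median member was at 0.40 with quartiles of 0.35 and 0.46, against a median of -0.09 over all genes. Small subunit proteins, stalk proteins and other large subunit proteins had medians of 0.42, 0.41 and 0.39. Past 1.5-fold, 3 members were higher, Rpl35, Rpl19 and Rpl15, and none was lower, where 5.74% and 5.61% of all genes were, so at that fold the share of members is not above the background. Within CM1 the sum was at 0.55 (interval 0.54 to 0.56) and 26 of 80 members were past 1.5-fold higher, where 7.85% of genes were. In CM4 the same comparison gave -0.26 (interval -0.28 to -0.23), and 3 of 79 members were above 0, where 54.1% of genes were.

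The second comparison sets the genotypes against each other after infarction and shares no library with the Sham pair. The sum was higher in KO-MI than in WT-MI by 0.18 (interval 0.17 to 0.19), less than in the Sham pair. All 80 members were above 0, where 55.3% of genes were, and none was past 1.5-fold, where 3.94% of genes were higher and 3.68% lower. The medians were 0.17 for the members and 0.03 for all genes. In CM1 the sum was at 0.15 (interval 0.14 to 0.16), in CM2 at 0.07 (0.02 to 0.11), in CM4 at 0.31 (0.28 to 0.33) and in CM5 at 0.30 (0.28 to 0.32), so KO-MI was the higher library in all 4 populations, and in CM4 76 of 79 members were above 0, where 45.7% of genes were. Red blood cell transcripts differed between these libraries (0.330% of UMIs in WT-Sham, 0.232% in KO-Sham, 0.452% in WT-MI and 0.212% in KO-MI over 5 genes, all 5 detected in each library, led by Hbb-bs), as did those of 11 myeloid genes (0.0132%, 0.0100%, 0.0557% and 0.0285%, all 11 detected in each library, led by S100a9 and S100a8). In nuclei with no UMI of a myeloid gene, the KO over WT sum was at 0.42 in Sham and 0.11 in MI. Such nuclei were an unequal part of the libraries: 891 of 1406 in WT-Sham, 2575 of 3328 in KO-Sham, 283 of 2003 in WT-MI and 670 of 1848 in KO-MI. The part of red blood cell transcripts in the result was not tested.

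The remaining comparisons set MI against Sham within each genotype. In WT the sum was higher after MI by 0.10 (interval 0.09 to 0.11), and 58 of 80 members were above 0, where 44.1% of genes were. In KO it was lower after MI, at -0.12 (interval -0.12 to -0.11), and 19 of 80 members were above 0, where 54.0% of genes were. Few members were past 1.5-fold in either. In WT, Rpl38 was higher and Rpl3l and Rpl15 were lower, where 12.5% of genes were higher and 15.9% lower, and in KO, Rpl7l1 was higher and Rpl3l, Rpl15 and Rpl35 were lower, where 14.1% and 12.5% were. Both shares of members are below the background. By class of mitochondrial share over all nuclei, the KO sum was at 0.11 (interval 0.08 to 0.13) with at most 5% mitochondrial UMIs. It was at 0.11 (0.10 to 0.12) with over 5% to 10%, against 0.29 and 0.30 in WT for these classes. The KO value with at most 5% rests on 162 KO-Sham nuclei. With over 10% the share was 3.88% in KO-Sham and 4.90% in KO-MI, but 4.74% in WT-Sham and 4.12% in WT-MI. In CM1 alone at over 5% to 10%, KO-Sham and KO-MI were both at 3.15%. The part of mitochondrial share in these sums was not tested. In CM4 the MI over Sham sum was at 0.01 in WT (interval -0.02 to 0.03) and at 0.57 in KO (0.55 to 0.59), with 33 of 79 KO members past 1.5-fold higher, where 17.7% of genes were. The nuclear RNA Malat1, of which nuclei hold much, was higher after MI by 0.41 in WT and 0.44 in KO, and its part in these sums was not tested.

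**Figure D3:**
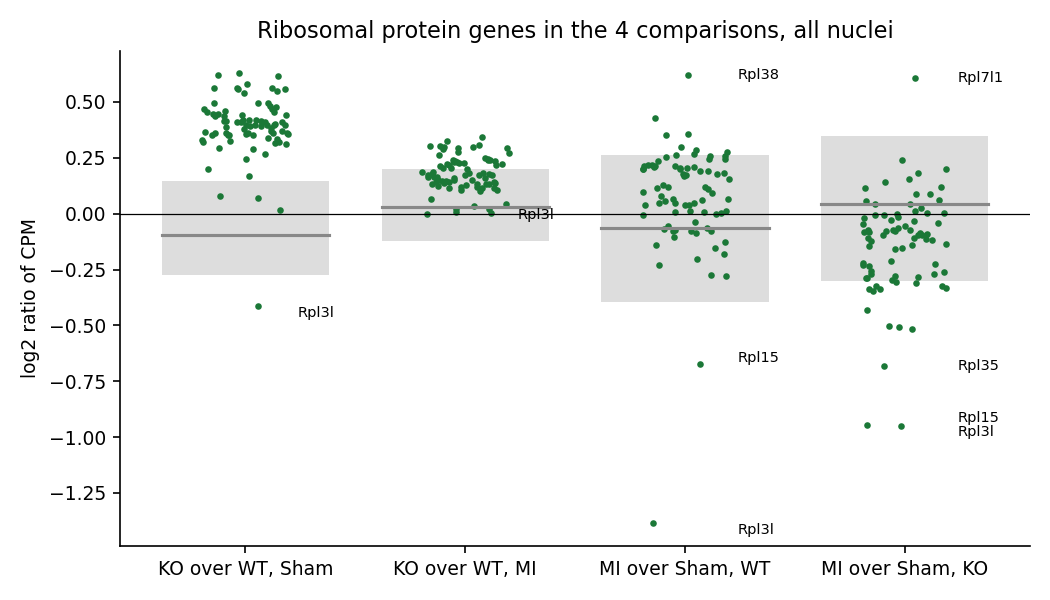
Log2 ratio of CPM (vertical axis) of the 80 members with 20 or more UMIs, 1 point per gene, in the 4 comparisons over all nuclei. Grey bands span the quartiles of all genes tested and grey lines their medians. In the Sham comparison of genotypes 79 of the 80 points lie above 0, with Rpl3l at -0.41, and in both MI over Sham comparisons Rpl3l and Rpl15 are the lowest points.

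The members were close to each other in the comparisons of genotypes. Taken against the sum of the other members, 71 of 80 members were within 0.2 on the log2 scale in the Sham pair and all 79 with 100 or more UMIs were in the MI pair. In the MI over Sham comparisons 65 of 79 and 57 of 80 were. The named members below are those at either end of this scale, the paralogs, and the most abundant.

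Rpl3l, the striated muscle paralog of Rpl3, had 54 UMIs in WT-Sham, 74 in KO-Sham, 33 in WT-MI and 31 in KO-MI, which is 10.8, 8.13, 4.15 and 4.21 CPM with intervals of 8.14 to 14.1, 6.38 to 10.2, 2.86 to 5.83 and 2.86 to 5.98. Both MI libraries were below both Sham libraries, with no overlap of the intervals, while the libraries of 1 surgery overlapped. Against the other members it was at -1.49 after MI in WT (interval -2.16 to -0.84) and at -0.83 in KO (-1.49 to -0.21). KO over WT it was at -0.81 in Sham (-1.34 to -0.28), the lowest of the members, and at -0.16 in MI (-0.91 to 0.59). In nuclei thinned to 1000 UMIs the Sham value was -0.31, with an interval that held 0 (-1.22 to 0.67). Most Rpl3l UMIs came from CM1, with 44, 60, 28 and 26, and in CM1 alone the values against the other members were -1.35 after MI in WT (-2.09 to -0.64) and -0.56 in KO (-1.29 to 0.12). In CM5 of WT-MI there were 0 Rpl3l UMIs, and the floor of 3 UMIs that was set in place of 0 is 2.03 CPM there. In the annotated transcripts, no stretch of 90 bases at the 3′ end of Rpl3l is shared with another gene. Introns, which were counted too, were not compared, and whether its few UMIs include reads of other genes was not tested.

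Rpl3, the general form, was at 251, 333.9, 282.6 and 321.6 CPM in the same order of libraries, and it moved with the family (0.02, 0.01, 0.07 and 0.06 against the other members in the 4 comparisons). Rpl3l was therefore 4.14% of the pair in WT-Sham (interval 3.12% to 5.36%), 2.38% in KO-Sham (1.87% to 2.97%), 1.45% in WT-MI (0.998% to 2.03%) and 1.29% in KO-MI (0.88% to 1.83%). Since 78.8% of the 3′ stretches of Rpl3 are shared with other genes, these percentages are uncertain, as the Rpl3 count may be. The WT-Sham share was above the other 3 without overlap, and the KO-Sham share overlapped that of WT-MI at its lower end. Outside CM1 the shares were 2.82%, 1.82%, 0.63% and 0.61% on 10, 14, 5 and 5 Rpl3l UMIs. The genes whose levels over the 16 sums of library and population were most like Rpl3l were Zfp971, Pxdn, Trib2, Pex19 and Ptcd2 (Pearson's r 0.89 to 0.86 among 9914 genes), but 12 of the 16 sums held 6 or fewer Rpl3l UMIs, so the ranking rests on a few molecules.

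The other paralogs did not follow it. Rpl22l1, the paralog of the RNA-binding protein Rpl22, was 30.3%, 32.6%, 32.5% and 30.2% of its pair in WT-Sham, KO-Sham, WT-MI and KO-MI, and the intervals of all 4 libraries overlapped. Rps27l, a p53-induced paralog of Rps27, was 30.8%, 30.95%, 29.9% and 30.2% of its pair, again with overlap throughout. Rpl7l1, a relative of Rpl7 that is linked to ribosome assembly, was 9.12% (interval 7.65% to 10.8%), 7.35% (6.46% to 8.32%), 11.5% (10.2% to 12.9%) and 12.6% (11.3% to 14.1%) of the pair with Rpl7, with both MI libraries above KO-Sham. Rpl7l1 was at 25.1, 25.4, 30.8 and 38.6 CPM. Against the other members it was at 0.72 after MI in KO (interval 0.47 to 0.98), the highest of the members, and at 0.20 in WT (-0.12 to 0.52), and KO over WT it was at -0.38 in Sham (-0.70 to -0.05) and 0.15 in MI (-0.11 to 0.40). Rpl7 was at 249.8, 319.9, 237.4 and 267.5 CPM, highest in KO-Sham, and 51.6% of its 3′ stretches are shared with other genes, which makes the pair's percentages uncertain.

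**Figure D4:**
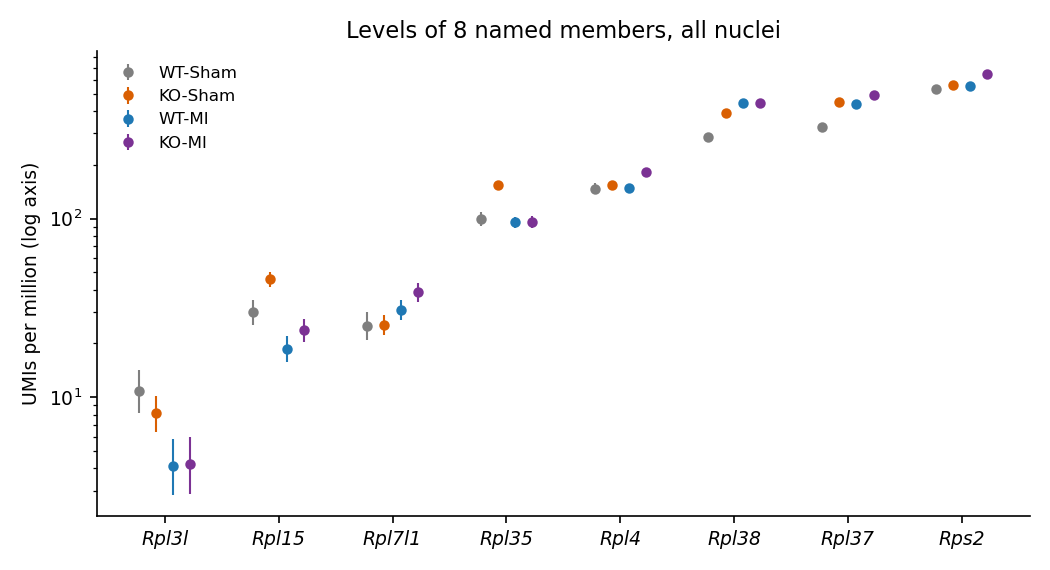
CPM (vertical log axis) of 8 named members in each library over all nuclei, with exact 95% Poisson intervals. Rpl3l lies at 4.15 and 4.21 in the MI libraries against 10.8 and 8.13 in the Sham libraries, Rpl15 and Rpl35 are highest in KO-Sham, and Rpl38 is lowest in WT-Sham.

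Rpl15, a core protein of the large subunit, had 149, 417, 149 and 175 UMIs, which is 29.9 CPM in WT-Sham (interval 25.3 to 35.1), 45.8 in KO-Sham (41.5 to 50.4), 18.7 in WT-MI (15.8 to 22.0) and 23.8 in KO-MI (20.4 to 27.6). The Sham libraries were above the MI library of the same genotype without overlap. Against the other members Rpl15 was at -0.78 after MI in WT (interval -1.11 to -0.44) and -0.83 in KO (-1.09 to -0.57), and in CM1 alone at -0.87 and -0.69. The gene Nkiras1 overlaps it in the annotation, and 45.1% of its 3′ stretches are shared with other genes.

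Rpl35, at the exit of the peptide tunnel, was at 99.3, 153.5, 95.65 and 95.65 CPM in WT-Sham, KO-Sham, WT-MI and KO-MI. It stood apart in 1 library, KO-Sham, whose interval of 146 to 162 lay above the other 3. It was among the 3 highest members KO over WT in Sham (0.23 against the other members, interval 0.08 to 0.38), among the lowest in MI (-0.18, -0.33 to -0.03) and lower after MI in KO (-0.57, -0.70 to -0.44) than in WT (-0.16, -0.32 to 0.01). Rpl10, an X-linked protein that joins the large subunit late, was at 223.9, 289.6, 201.5 and 202.3 CPM and was lower than the other members after MI in both genotypes (-0.26, interval -0.37 to -0.14, and -0.40, interval -0.50 to -0.31). Rpl19, which links the subunits, was at 446, 685, 458 and 561 CPM and was above the other members KO over WT in both pairs, at 0.23 (0.16 to 0.30) and 0.12 (0.05 to 0.18).

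Rplp0 and Rpl29 had a like pattern after MI. Rplp0, which anchors the stalk, was at 502.3, 615, 414 and 488 CPM and Rpl29, a small heparin-binding protein, at 250.2, 306, 207.1 and 246 CPM. Both were lower in the MI library of each genotype, with values of -0.39 (interval -0.46 to -0.31) and -0.22 (-0.28 to -0.16) for Rplp0 and -0.38 (-0.48 to -0.27) and -0.20 (-0.28 to -0.11) for Rpl29 against the other members in WT and KO. Rplp1, the other stalk protein named here, was at 764, 1047, 806 and 868 CPM and did not share this in WT (-0.02, interval -0.08 to 0.03), while in KO it was at -0.16 (-0.20 to -0.11).

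Other large subunit proteins went the opposite way. Rpl38, known from mice with skeletal patterning defects, was at 287.9 CPM in WT-Sham (interval 273 to 303), 392 in KO-Sham (379 to 405), 443 in WT-MI (429 to 458) and 444 in KO-MI (429 to 460). WT-Sham was the lowest and the MI libraries were alike. Against the other members it was at 0.53 after MI in WT (0.44 to 0.62) and 0.30 in KO (0.23 to 0.37), and at -0.18 KO over WT in MI (-0.25 to -0.11). Rpl37 was at 325.6, 448, 438 and 494 CPM, with 0.33 (interval 0.25 to 0.42) and 0.26 (0.20 to 0.33) after MI, and none of its 3′ stretches is shared with another gene. Rpl41 was at 549.7, 652, 661 and 693 CPM, with 0.17 (0.10 to 0.24) and 0.21 (0.16 to 0.26).

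In the small subunit, Rps18, a protein of the head of the subunit, was at 292.5, 426, 374 and 439 CPM, with 0.26 (interval 0.17 to 0.35) and 0.16 (0.09 to 0.23) against the other members after MI in WT and KO. Rps24 was at 543, 726, 515 and 581 CPM, with -0.18 (-0.25 to -0.11) and -0.21 (-0.27 to -0.16). So the small subunit too held members on either side. Rps2, which lines the entry of the message, differed by library: it was at 530.6, 559.9, 552 and 643.9 CPM, and ranked 7 among the members in WT-Sham, WT-MI and KO-MI but 17 in KO-Sham. Its value against the other members KO over WT in Sham was -0.33 (interval -0.39 to -0.26), and MI over Sham in KO it was 0.32 (0.27 to 0.38), both of which contain that library. Rpl4, a large subunit protein with an arm in the peptide tunnel, did the same at 147.1, 154.5, 148.2 and 182.3 CPM, with -0.33 (-0.46 to -0.20) and 0.36 (0.25 to 0.47).

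The deviations after MI can be set side by side between genotypes, because the WT pair and the KO pair share no library. Over the 79 members with 100 or more UMIs in both pairs, Pearson's r between the log2 ratios against the other members was 0.74 and Spearman's rho 0.67, and 61 members had the same sign. Both intervals lay above 0 for 13 members, among them Rpl38, Rpl37, Rps18, Rpl13 and Rpl41, and below 0 for 18, among them Rpl15, Rplp0, Rpl29, Rpl10, Rpl23, Rps24 and Rpl7. They lay on opposite sides for 2. In CM1 alone r was 0.68, and in CM4 and CM5, with fewer UMIs, 0.41 and 0.40. The 2 comparisons of genotypes, which share no library either, gave r of -0.18 and 32 members of the same sign. These are descriptions over genes, which are not replicates, and each pair is 1 library against 1 other. The surgeries also differed in mitochondrial share and myeloid transcripts, whose part in the shared pattern was not tested.

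**Figure D5:**
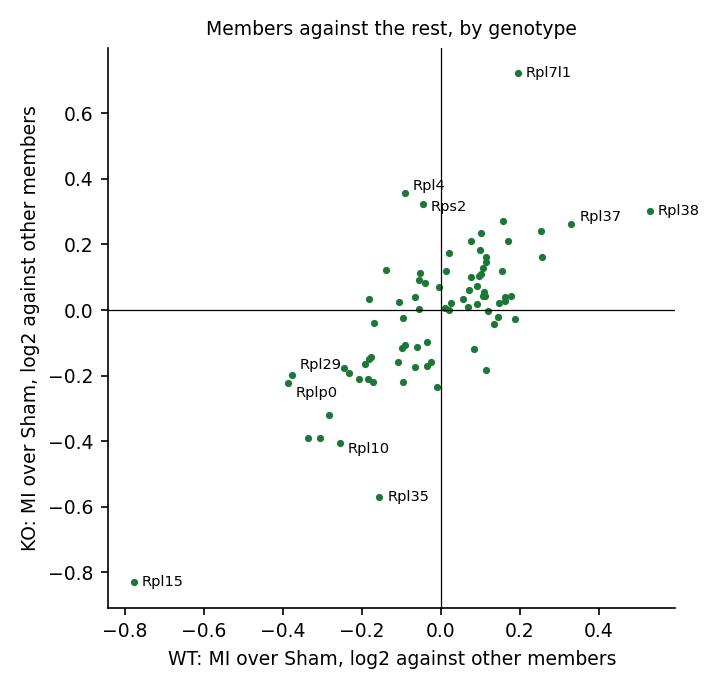
Log2 ratio of MI over Sham for each of 79 members against the sum of the other members, in WT (horizontal axis) and KO (vertical axis), from libraries that are not shared. The points run from lower left (Rpl15) to upper right (Rpl38), with Pearson's r of 0.74, and Rpl7l1 lies highest in KO.

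In CM4, where the family was lower in KO-Sham than in WT-Sham and higher in KO-MI than in WT-MI, the members were again close together. KO-MI over WT-MI, 64 of 77 members were within 0.2 of the other members. Rpl29 (0.41, interval 0.16 to 0.67), Rpl23a (0.26, -0.06 to 0.59) and Rpl11, which binds Mdm2 when ribosome assembly fails (0.25, 0.06 to 0.44), were the highest. Rpl10 (-0.46, -0.76 to -0.16), Rpl35 (-0.37, -0.86 to 0.10) and Rps28 (-0.28, -0.51 to -0.06) were the lowest. MI over Sham in KO, Rps2 had the largest log2 ratio of CPM of the 77 members ranked (1.02, interval 0.86 to 1.18) and Rpl35 was lower (-0.53, -0.95 to -0.12).

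Genes that act with the ribosome did not all move with it. The 78 mitochondrial ribosomal proteins, which build the separate ribosome of the mitochondrion, had medians of 0.38, 0.22, -0.22 and -0.38 KO over WT in Sham and in MI and MI over Sham in WT and in KO, where the members had 0.40, 0.17, 0.10 and -0.10, and 78 of the 79 listed subunits of the respiratory chain (1 had too few UMIs) 0.65, 0.26, -0.56 and -0.95. Both lists were above 0 in KO over WT and below 0 after MI in both genotypes, whereas the cytosolic ribosomal proteins were above 0 after MI in WT. The transcripts of the mitochondrial genome were at 6.94%, 8.88%, 5.81% and 5.60% of UMIs in WT-Sham, KO-Sham, WT-MI and KO-MI.

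The 38 ribosome assembly genes, which process and fold the new particle in the nucleolus, had medians of 0.08, 0.10, 0.51 and 0.54. After MI, 16 of 38 were past 1.5-fold higher and none lower in WT, and 18 were higher and 1 lower in KO, where the shares of all genes given above were 12.5% and 15.9% in WT and 14.1% and 12.5% in KO. The most abundant were Npm1 (128, 162, 172 and 192 CPM) and Ncl (104, 124, 134 and 149 CPM), nucleolar proteins, both at higher levels in the MI library of each genotype. Members of the ribosome were thus at medians of 0.10 and -0.10 where its assembly genes were at 0.51 and 0.54. The noncoding RNAs whose introns carry snoRNAs, small RNAs that guide modification of ribosomal RNA, had medians of 0.47 and 0.53 after MI over 13 genes, and Gas5, the most abundant, was at 76.2, 86.8, 103 and 126 CPM. The 39 translation factors had medians of 0.21, 0.12, 0.12 and 0.14. Eef1a1, which brings transfer RNA to the ribosome, was at 925, 1014, 752 and 850 CPM and Tpt1, another message with a C and T start, at 889, 1049.7, 735 and 812 CPM, both lower after MI in each genotype. The 21 regulators, which include the mTOR and Myc pathways, had medians of -0.19, -0.02, 0.05 and 0.12.

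All 81 members had a gene in the GENCODE annotation of GRCm38. The median member gene was 3368 bases long, against 20271 bases for all matrix genes in the annotation. A snoRNA gene lay inside 29 members, and the medians with and without one were 0.38 and 0.42 KO over WT in Sham and 0.16 and 0.10 after MI in WT. Across members, Spearman's rho of the log2 ratio with gene length was between -0.25 and 0.24 over the 4 comparisons and with the shared share of 3′ stretches between -0.11 and 0.14. Of the members, 61 share over 10% of the 90-base stretches in the last 500 bases of their transcripts with other genes, and 23 share over 50%, so that the level of a single member is less certain than the sum. Another gene overlaps 27 members.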

How the data were processed

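The authors deposited a matrix of UMI counts per gene and nucleus, with no normalization, and 1 line per nucleus with its library and population. By the labels and the study's methods, nuclei were processed with a 10x Genomics 3′ kit and Cell Ranger (version not given in the sources used here) on the mm10 pre-mRNA reference, so that introns were counted, and clustered with Seurat 3. The authors had removed doublets (Scrublet), clusters other than cardiomyocytes and nuclei with many detected genes. By the study's methods, populations were assigned by label transfer from an earlier dataset, with CM3 merged into CM1. The deposited population column was used here as given, and no transferred label was compared with it. No doublet caller was run here. Column sums equalled the deposited counts in 8585 of 8585 nuclei, which held 537 to 2499 detected genes. Of the deposited columns, 13 were not used.

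Counts were summed per library, or per population of a library, and divided by the total per 1000000 (CPM). Log2 ratios have exact conditional binomial 95% intervals, CPM Poisson intervals and shares Clopper-Pearson intervals. Values against the other members take the sums of those members as fixed. Medians and counts hold the genes whose UMIs in a comparison came to 20 or more. A count of 0 was set to 3 UMIs. With 1 library per group there was no test. The interval script was tested on simulated counts. Python 3.11.15, scipy 1.17.1 and edgeR 4.0.16 (for TMM factors only) were used.

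The members and gene lists were chosen with earlier results of these data known. Members were named by rule: paralogs and the gene each copies, the 10 with the most UMIs, and the 3 highest and 3 lowest against the other members in each comparison (100 or more UMIs, or 50 in CM4). Other lists are named by their 2 genes with the most UMIs. Some genes measured here are not reported.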

Additional observations from a re-analysis of the deposited data

Results flagged for a closer look

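The same contrast had opposite signs in 3 cases for the summed ribosomal protein genes, with both intervals away from 0. None of these differences was tested, since each group was 1 library. In CM4 nuclei, KO over WT was at -0.26 in Sham and 0.31 in MI, a difference of 0.56 on the log2 scale. Malat1, a nuclear RNA, had the opposite signs in CM4, at 1.15 in Sham and -0.61 in MI, and its part was not tested. Over all nuclei, MI over Sham was at 0.10 in WT and -0.12 in KO, a difference of -0.22. In CM1 nuclei, MI over Sham was at 0.22 in WT and -0.18 in KO, a difference of -0.40. Over all nuclei with at most 5% mitochondrial UMIs, and over those with over 5% to 10%, MI over Sham was above 0 in both genotypes. With over 10% the genotypes differed in sign again. The share was lower in WT-MI than in WT-Sham (4.12% and 4.74%) and higher in KO-MI than in KO-Sham (4.90% and 3.88%).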

How the results depend on the processing

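The summed log2 ratios are given in the order KO over WT in Sham and in MI, then MI over Sham in WT and in KO, where the reported values were 0.40, 0.18, 0.10 and -0.12. TMM factors gave 0.50, 0.16, 0.17 and -0.17, values relative to the median of all genes 0.49, 0.15, 0.17 and -0.16, and nuclei thinned to 1000 UMIs 0.28, 0.13, 0.067 and -0.084. TMM scaling moved the median of all genes by 0.10 KO over WT in Sham and by less in the other comparisons. CPM without the mitochondrial genome gave 0.43 in Sham, 0.084 in WT and -0.17 in KO. Nuclei with at most 5% mitochondrial UMIs gave 0.28, 0.10, 0.29 and 0.11, and equal weight to populations 0.26, 0.21, 0.12 and 0.066, so MI over Sham in KO changed sign in both. CM1 gave 0.55, 0.15, 0.22 and -0.18, CM2 0.46, 0.066, 0.38 and -0.0087, and CM4 -0.26, 0.31, 0.0068 and 0.57, with KO over WT in Sham and MI over Sham in KO reversed. CM5 gave 0.30 and 0.30 for KO over WT and, reversed, -0.11 for MI over Sham in WT. Of the alternatives chosen after seeing the data, nuclei with no myeloid UMI gave 0.42 and 0.11 for KO over WT and -0.21 for MI over Sham in KO, and nuclei with over 5% to 10% mitochondrial UMIs gave 0.46, 0.27, 0.30 and 0.11, with MI over Sham in KO reversed. The causes were not tested. For Rpl3l against the other members, KO over WT in Sham was at 0.96 in CM4 and -2.27 in CM5, on few UMIs. Thinned to 1000 UMIs it was at -0.31 (interval -1.22 to 0.67). With at most 5% mitochondrial UMIs it was at -0.38 (-2.20 to 1.18), so both intervals held 0. CM1 gave -0.93 (-1.51 to -0.33) and nuclei with over 5% to 10% mitochondrial UMIs -1.18 (-1.85 to -0.51). Nuclei with no myeloid UMI gave -0.86 (-1.46 to -0.24). MI over Sham in WT in CM5 was at -3.07 with its count of 0 set to 3 UMIs, also on few UMIs. Nuclei with no UMI of other cell types gave no value, since 3 or fewer remained per library. No paired analysis was possible because each group was 1 library, and no replicate could be left out. Depth limits Rpl3l and Rpl39l most.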
